A study of Mus musculus with 9 samples.

Results

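The colon of wild-type mice given dextran sulfate sodium (DSS) together with lotus node charcoal carbon dots (the group CDs, 3 libraries) was compared by RNA sequencing with the colon of wild-type mice given DSS alone (the group Model, 3 libraries). These 6 of the 9 libraries were chosen by their titles in the deposited table of read counts, and the other 3, from untreated wild-type mice (the group Blank), are given beside them as the background. All 21959 genes of the table were considered, of which 14921 passed the filter on low counts and were tested. The series text calls the replicates biological. The labels give no strain, sex, age, dose, route or schedule. A group that received the carbon dots without DSS is not among the samples analysed here.

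DSS is a sulfated polysaccharide that strips and injures the lining of the colon, and it is widely used to model ulcerative colitis. In the injured wall neutrophils and macrophages gather, fibroblasts secrete matrix metalloproteinases that cut collagen, vessels leak and bleed, and surviving crypt cells close the wound. Carbon dots are nanometre-sized fluorescent carbon particles. Those made by charring medicinal plants are studied for effects on bleeding and inflammation, and charred lotus rhizome node is a traditional remedy for bleeding.

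Counted reads numbered 13868864 to 19940300 per library, spread over 16612 to 17120 genes. Values are given as CPM (counts scaled to 1000000 reads per library), in which 3 reads, taken as the floor of detection, were worth 0.142 to 0.221. Per-library values are listed in the order of replicates 1, 2 and 3. Colon genes were abundant in each DSS-treated library: the mucin Muc2 was at 3915 to 9125 CPM and the colonocyte enzyme Car1 at 421 to 1932 CPM. Some libraries also held transcripts of the pancreas. The 19 tested genes of the pancreatic acinar list had their largest share of reads in Model 3 (8.16%), followed by Model 1 (0.994%) and CDs 1 (0.0456%). The other 6 libraries held 0.00320% to 0.0221%. Model 1, Model 3 and CDs 1 are therefore named below wherever a value rests on them, and counts are also given without them. Among the Blank libraries Blank 2 held 603 CPM of the prostate gene Tgm4, against 0.957 to 2.4996 CPM in the DSS-treated libraries.

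The difference between the treatments was no larger than the spread inside them. Over the tested genes the median SD of log2 CPM was 0.204 between the Model libraries and 0.230 between the CDs libraries, and the median absolute difference between the group means was 0.132. For 25.8% of genes that difference was larger than the pooled SD. CDs 2 and CDs 3 were the closest pair of all 9 libraries, with a Euclidean distance of 46.1 over log2 CPM and a Spearman correlation across genes of 0.991. CDs 1 was 82.1 and 85.6 away from them, farther than from each Model library (73.4 to 79.4). Model 1 and Model 3 were 60.7 apart, and Model 2 was 93.9 and 91.7 away from them. Without the pancreatic list Model 2 was 82.5 from Model 1 and 71.1 from Model 3. Model 1 was then nearer to CDs 3 (56.5) than to Model 3 (59.2). CDs 1 held the highest of the 6 values for 3721 genes (24.9%) and the lowest for 3405.

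**Figure D1:**
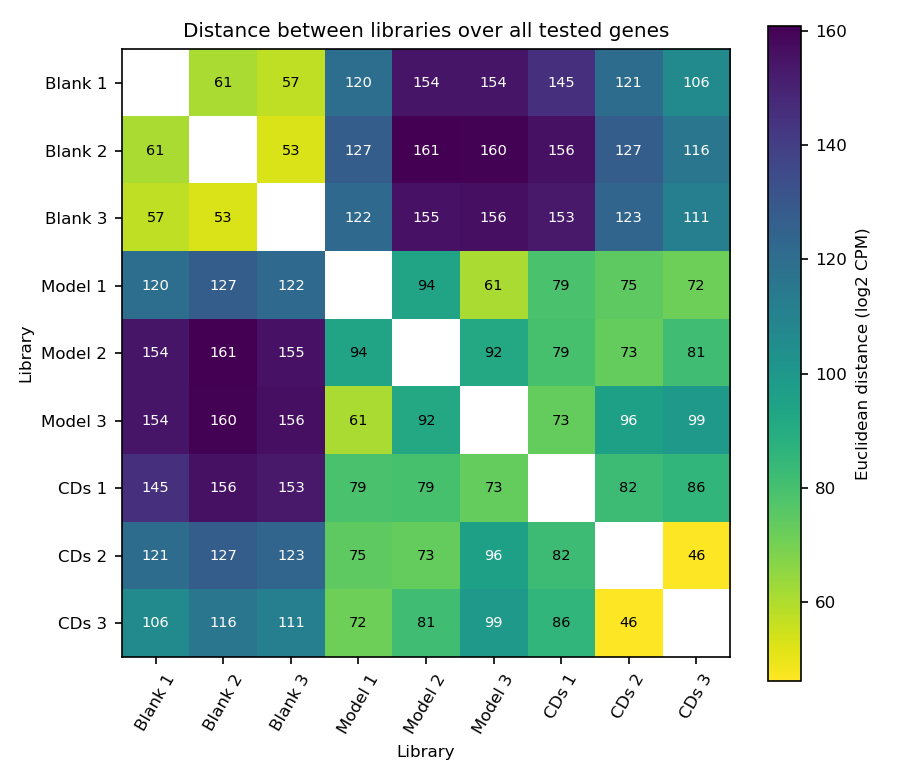
Euclidean distance between each pair of the 9 libraries over the log2 CPM of all tested genes, both axes listing the libraries. CDs 2 and CDs 3 lie 46.1 apart, while CDs 1 lies nearer to the Model libraries (73.4 to 79.4) than to them (82.1 and 85.6).

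Model 1, CDs 2 and CDs 3 were also the DSS-treated libraries nearest to Blank, at mean distances of 123, 124 and 111, beside 157, 157 and 151 for Model 2, Model 3 and CDs 1. In all, 1 library of the CDs group and 2 of the Model group stood farther from untreated colon than the other 3, whichever treatment they had received. The summed epithelial, muscle and mitochondrial lists described below were higher in Model 1, CDs 2 and CDs 3 than in the others, again across the treatment groups. For muscle, CDs 2 and CDs 3 lay above the Blank libraries rather than near them.

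No gene passed the main test of CDs against Model. The edgeR quasi-likelihood test called 0 of 14921 genes (0%) at an adjusted p under 0.05, with 0.891 as the smallest adjusted p. That value therefore bounds the edgeR adjusted p of every gene named below and is not repeated. At an unadjusted p under 0.05 there were 228 genes higher in CDs (1.53%) and 560 lower (3.75%), and scaled by library totals instead there were 312 and 407. The balance of directions turned without CDs 1, with 801 higher and 748 lower, and in limma voom with sample weights, with 1636 and 1103. The 3 CDs values lay all above the 3 Model values for 481 genes (3.22%) and all below for 711 (4.77%). Random order of 3 against 3 values would by itself set apart a share of genes no smaller than both together. Some genes also reach an unadjusted p under 0.05 where groups do not differ. Neither mark alone shows a difference in a gene named below. DESeq2 has another variance model and likewise took the spread from all 9 libraries, Blank included. It called 5 genes higher (0.0321% of the 15561 to which it gave an adjusted p) and 46 lower (0.296%). Of these 51 calls 41 were of genes whose groups did not overlap, and 4 were of genes on the pancreatic list. Without that list DESeq2 called 43 genes. Leaving out 1 library moved the number of DESeq2 calls to 440 without Model 1, 39 without Model 2, 13 without Model 3, 188 without CDs 1, 11 without CDs 2 and 16 without CDs 3. Without Model 1, Model 3 and CDs 1, CDs 2 and CDs 3 faced Model 2 alone, whose variation had to be taken from the other groups, and edgeR called 1241 genes, 752 higher and 489 lower. The log2 fold change of CDs over Model from edgeR, written log2FC and given with its SE, had a median of 0.02 over all tested genes. Each gene list below is to be read against that median and the percentages just given.

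**Figure D2:**
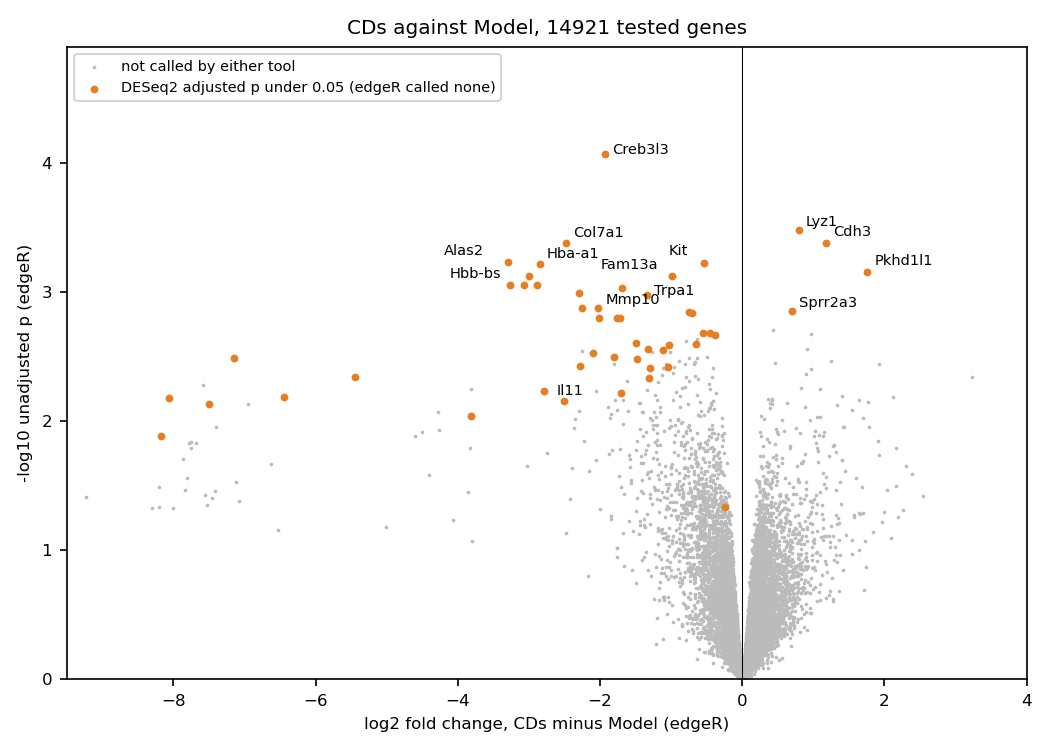
Each point is 1 of the 14921 tested genes, with the edgeR log2 fold change of CDs minus Model on the x axis and minus log10 of the unadjusted p on the y axis, and orange points mark genes that DESeq2 called. Most labelled genes lie on the side lower in CDs, the points beyond a log2 fold change of -6 include Pnlip and other pancreatic genes, and no point passed the edgeR test after adjustment.

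Transcripts of red cells were lower in CDs than in Model, most of all against Model 2. The chains of adult hemoglobin are encoded by the alpha globin genes Hba-a1 and Hba-a2 and the beta globin genes Hbb-bs and Hbb-bt, and Alas2 starts the making of heme in developing red cells. Mature red cells of the mouse carry leftover globin RNA but no nucleus, so these transcripts can come with blood held in the tissue. In bulk RNA, fewer cells of a type and less RNA per cell cannot be told apart, here or in any group below.

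Hbb-bs had 48.0, 244 and 68.0 CPM in Model and 15.2, 20.6 and 9.41 CPM in CDs. The lowest Model value was above the highest CDs value, and Model 2 was several times above the other Model libraries. The fold was 7.96 (log2FC -2.99 ± 0.6; unadjusted p = 0.000747; DESeq2 adjusted p = 0.000109). The size depended on Model 2, without which it was -1.94. Hba-a1 had 22.5, 109 and 37.2 CPM in Model and 7.68, 10.6 and 5.07 CPM in CDs, again with no overlap (log2FC -2.85 ± 0.55; DESeq2 adjusted p = 0.000109; -1.93 without Model 2). Alas2 was rarer, with 3.34, 18.9 and 5.56 CPM in Model and 0.832, 1.26 and 0.735 CPM in CDs, and ordered the libraries the same way within Model. Its log2 fold change was -3.29 ± 0.63 (DESeq2 adjusted p = 0.000279) and -2.22 without Model 2. The other globin copies, Hbb-bt and Hba-a2, had log2 fold changes of -3.07 ± 0.63 and -2.88 ± 0.59, and reads of the near-identical copies may have been split between them. Hba-a2 had 1.52, 3.51 and 1.21 CPM in Model and 0.448, 0.299 and 0.0735 CPM in CDs, where it had 13 reads in all. It was near the floor in Blank too and passed the filter through the Model libraries, which favours a lower estimate in CDs. In Blank the values were 9.97, 11.7 and 15.4 CPM for Hbb-bs, 4.57, 6.04 and 4.72 CPM for Hba-a1 and 0.964, 1.303 and 1.11 CPM for Alas2, inside or close to the range of the CDs libraries.

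Of the 12 tested genes of the red cell list 6 had an unadjusted p under 0.05 and the same number lay without overlap, all lower in CDs, and DESeq2 called 5 of them. Hba-a2 is counted in each of these numbers. By estimate 9 were lower and 3 higher in CDs, the highest being Ermap (log2FC 0.48). Fech, which closes heme synthesis in every cell type, overlapped between the groups with 63.2, 71.5 and 61.0 CPM in Model and 48.8, 62.4 and 62.1 CPM in CDs (log2FC -0.18 ± 0.12). Slc4a1, the anion exchanger of the red cell membrane, did not pass the filter on low counts. Gata1, the transcription factor of nucleated red cell precursors, was named after its values were seen and stayed near the floor, at 0.726, 0.380 and 0.872 CPM in Model 1 to 3 and 0.832, 0.658 and 0.809 CPM in CDs 1 to 3, the groups overlapping. The median log2 fold change of the list was -0.72 (-1.47 to -0.43 over leaving out each library). Without Model 1, Model 3 and CDs 1 it was -1.10.

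The promoters of Hbb-bs, Hbb-bt, Hba-a1 and Alas2 are shown because these genes were lower in CDs without overlap. The windows are RefSeq sequence of GRCm38.p6, 5′ to 3′ on the gene's own strand, with the letters GATAA or their reverse complement TTATC in capitals. GATAA is the core that GATA factors read. The windows run from 220 to 71 bases before the annotated start for Hbb-bs (chr7:103827999-103828148, minus strand), Hbb-bt (chr7:103813994-103814143, minus strand) and Hba-a1 (chr11:32283452-32283601, plus strand), and from 120 bases before to 30 after it for Alas2 (chrX:150547297-150547446, plus strand).
Hbb-bs: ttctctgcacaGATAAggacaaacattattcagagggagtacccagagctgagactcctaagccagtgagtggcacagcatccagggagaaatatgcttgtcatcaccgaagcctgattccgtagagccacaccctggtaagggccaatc
Hbb-bt: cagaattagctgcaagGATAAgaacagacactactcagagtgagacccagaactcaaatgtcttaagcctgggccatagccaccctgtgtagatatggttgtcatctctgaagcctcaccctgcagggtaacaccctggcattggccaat
Hba-a1: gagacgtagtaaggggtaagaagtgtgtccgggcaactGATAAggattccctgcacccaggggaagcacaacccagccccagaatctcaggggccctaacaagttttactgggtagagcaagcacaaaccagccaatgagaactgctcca
Alas2: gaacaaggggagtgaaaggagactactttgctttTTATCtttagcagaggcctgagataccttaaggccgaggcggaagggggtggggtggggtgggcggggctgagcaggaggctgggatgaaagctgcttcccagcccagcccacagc
The match began 209 bases before the start in Hbb-bs, 204 in Hbb-bt and 182 in Hba-a1, on the gene's strand, and 86 bases before it in Alas2, on the other strand. Over the whole 300-base promoters 6 of the 8 red cell genes with a promoter in the table held the motif, beside 20.2% of the 11723 tested genes that have one. Ermap, whose estimate was higher in CDs, was among those 6. A match describes the letters of the window and does not show that a factor was bound.

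Matrix metalloproteinases, the enzymes that cut collagen and other matrix, made up the next group. Mmp10 (stromelysin-2) had 117, 350.1 and 273 CPM in Model and 93.5, 40.1 and 48.9 CPM in CDs, beside 0.964, 1.99 and 1.03 CPM in Blank. CDs 1 came closest to Model 1, without overlap. The level was 4.06-fold lower in CDs (log2FC -2.02 ± 0.44; unadjusted p = 0.00132; DESeq2 adjusted p = 0.00613). Mmp13, the main collagenase of the mouse, had 192, 526 and 405 CPM in Model and 175, 60.4 and 85.8 CPM in CDs, beside 8.62, 12.8 and 8.34 CPM in Blank. The order of the libraries was that of Mmp10, with CDs 1 just under Model 1, and the log2 fold change was -1.8 ± 0.45 (DESeq2 adjusted p = 0.0194). Mmp2, a gelatinase of fibroblasts, had 208, 396 and 305 CPM in Model and 198, 160.3 and 169.6 CPM in CDs, where CDs 1 was again the CDs library nearest to Model 1 (log2FC -0.79 ± 0.21).

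The groups overlapped for the other metalloproteinases. Mmp3 (stromelysin-1) had 213, 322 and 479 CPM in Model and 294, 131 and 118 CPM in CDs, so that CDs 1 exceeded Model 1 (log2FC -0.9 ± 0.41; unadjusted p = 0.054). Mmp12, the macrophage elastase, and Mmp9, a gelatinase of neutrophils, were named after their values were seen. Mmp12 had 15.4, 26.4 and 31.4 CPM in Model and 15.7, 4.25 and 13.2 CPM in CDs (log2FC -1.15 ± 0.43). Mmp9 had 26.3, 94.0 and 55.1 CPM in Model and 54.1, 24.0 and 32.9 CPM in CDs (log2FC -0.66 ± 0.44). The inhibitor Timp1 had 31.9, 98.6 and 66.6 CPM in Model and 53.2, 44.5 and 38.7 CPM in CDs (log2FC -0.53 ± 0.33). In Mmp9 and Timp1 Model 2 was highest, Model 1 lay among the CDs libraries for Mmp9, and it was the lowest of the 6 for Timp1. Of the 17 tested genes of the list 15 had a lower estimate in CDs, 5 an unadjusted p under 0.05 and 3 no overlap, all lower. The median log2 fold change was -0.66 (-1.0 to -0.27 over leaving out each library, nearest to 0 without Model 2; -1.37 without Model 1, Model 3 and CDs 1).

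Mmp10, Mmp13, Mmp3 and Mmp12 lie in 1 cluster on chromosome 9, which the deposited table places at chr9:7502353-7510241, chr9:7272514-7283331, chr9:7445822-7455975 and chr9:7344381-7369499 with no build named. Their promoters are shown for the AP-1 core, TGAGTCA or its reverse complement TGACTCA, in capitals. Each window runs from 120 bases before to 30 after the start that RefSeq gives on the plus strand of GRCm38.p6: chr9:7502222-7502371, chr9:7272394-7272543, chr9:7445702-7445851 and, for the second of 2 starts of Mmp12, chr9:7347254-7347403.
Mmp10: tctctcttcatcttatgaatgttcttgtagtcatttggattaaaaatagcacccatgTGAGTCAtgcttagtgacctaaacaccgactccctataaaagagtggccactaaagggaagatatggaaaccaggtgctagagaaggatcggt
Mmp13: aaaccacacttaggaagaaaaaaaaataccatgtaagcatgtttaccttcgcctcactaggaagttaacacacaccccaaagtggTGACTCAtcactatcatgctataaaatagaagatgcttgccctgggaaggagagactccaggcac
Mmp3: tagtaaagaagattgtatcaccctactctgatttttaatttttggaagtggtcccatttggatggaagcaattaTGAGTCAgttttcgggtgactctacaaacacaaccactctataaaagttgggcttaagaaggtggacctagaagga
Mmp12: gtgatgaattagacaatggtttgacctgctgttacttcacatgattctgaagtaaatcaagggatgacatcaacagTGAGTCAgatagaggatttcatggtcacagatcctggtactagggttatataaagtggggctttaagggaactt
The core began 63 bases before the start in Mmp10, 46 in Mmp3 and 44 in Mmp12 on the gene's strand, and 35 in Mmp13 on the other. These 4 were the only genes with it among the 12 metalloproteinase and inhibitor genes that have a promoter in the table, beside 5.01% of the 11723 tested genes. AP-1 is a dimer of Fos and Jun family proteins. Fos RNA was at 64.1, 103 and 127 CPM in Model and 99.7, 62.9 and 152 CPM in CDs, and Jun RNA at 93.5, 89.0 and 103 and 91.7, 109 and 129.5 CPM, both overlapping between the groups. RNA levels say nothing of the factor's activity.

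Genes of the matrix itself and of fibroblasts had lower estimates in CDs in most members, with Model 1 often inside the CDs range. Col7a1, the collagen of anchoring fibrils, had 5.23, 17.8 and 17.9 CPM in Model and 1.66, 2.93 and 2.79 CPM in CDs, and all 3 CDs libraries were within or near the Blank values of 2.06, 2.68 and 1.99 CPM. The fold was 5.55 (log2FC -2.47 ± 0.45; DESeq2 adjusted p = 0.000279). Tenascin C (Tnc), a matrix protein of healing wounds, had 427, 1332 and 969.7 CPM in Model and 374, 321 and 404 CPM in CDs (log2FC -1.31 ± 0.35; DESeq2 adjusted p = 0.0483), and Model 1 stood just above the CDs libraries. Col12a1 had 222, 489 and 369 CPM in Model and 146, 138 and 215 CPM in CDs (log2FC -1.11 ± 0.27; DESeq2 adjusted p = 0.034). For these 3 genes the groups did not overlap.

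Fn1 (fibronectin), which bridges cells and matrix, had 1009, 1397 and 1238 CPM in Model and 891, 970.0 and 982 CPM in CDs, its groups just apart (log2FC -0.36 ± 0.15; unadjusted p = 0.0443). The fibrillar collagens overlapped. Col1a1 had 442, 871 and 802 CPM in Model and 525, 640.5 and 501 CPM in CDs (log2FC -0.34 ± 0.23), and Col3a1, of the same fibrils, had 2266, 4472 and 3967 CPM in Model and 2854, 2742 and 2423 CPM in CDs (log2FC -0.42 ± 0.24). For both, Model 1 was lowest of the 6 libraries and Model 2 and Model 3 were highest. Of the 30 tested members 26 had a lower estimate, 11 an unadjusted p under 0.05, all lower, and 4 no overlap, all lower. The median was -0.39 (-0.62 to -0.19 over leaving out each library). Acta2, the actin of muscle and myofibroblasts, had the opposite sign with 996, 856 and 799 CPM in Model and 724, 1415 and 1418 CPM in CDs (log2FC 0.42 ± 0.26) and ordered the libraries like the smooth muscle genes below.

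DESeq2 also called 3 stromal genes that are named after their values were seen. Grem1, an antagonist of bone morphogenetic proteins made by subepithelial stroma, had 1006, 2258 and 1738 CPM in Model and 814, 718 and 902 CPM in CDs (log2FC -1.04 ± 0.27; DESeq2 adjusted p = 0.0431). Smoc1, a matrix protein, had 14.6, 49.0 and 32.0 CPM in Model and 13.6, 11.9 and 9.04 CPM in CDs (log2FC -1.47 ± 0.37). Abcc9, a subunit of potassium channels in vessel wall cells, had 206, 464 and 310.1 CPM in Model and 169, 158 and 151 CPM in CDs (log2FC -1.03 ± 0.25). In all 3 the lowest Model value was that of Model 1, and it lay above the 3 CDs values. Ror2 and Fzd4, receptors for Wnt ligands, were lower without overlap as well. Ror2 had 22.4, 31.4 and 31.5 CPM in Model and 18.6, 19.1 and 17.1 CPM in CDs (log2FC -0.64 ± 0.15). Fzd4 had 56.9, 63.5 and 63.7 CPM in Model and 45.2, 49.4 and 39.3 CPM in CDs (log2FC -0.46 ± 0.11). Ghr, the growth hormone receptor, had 85.8, 107 and 104 CPM in Model and 61.9, 74.4 and 65.9 CPM in CDs (log2FC -0.56 ± 0.13), and its groups too lay apart.

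**Figure D3:**
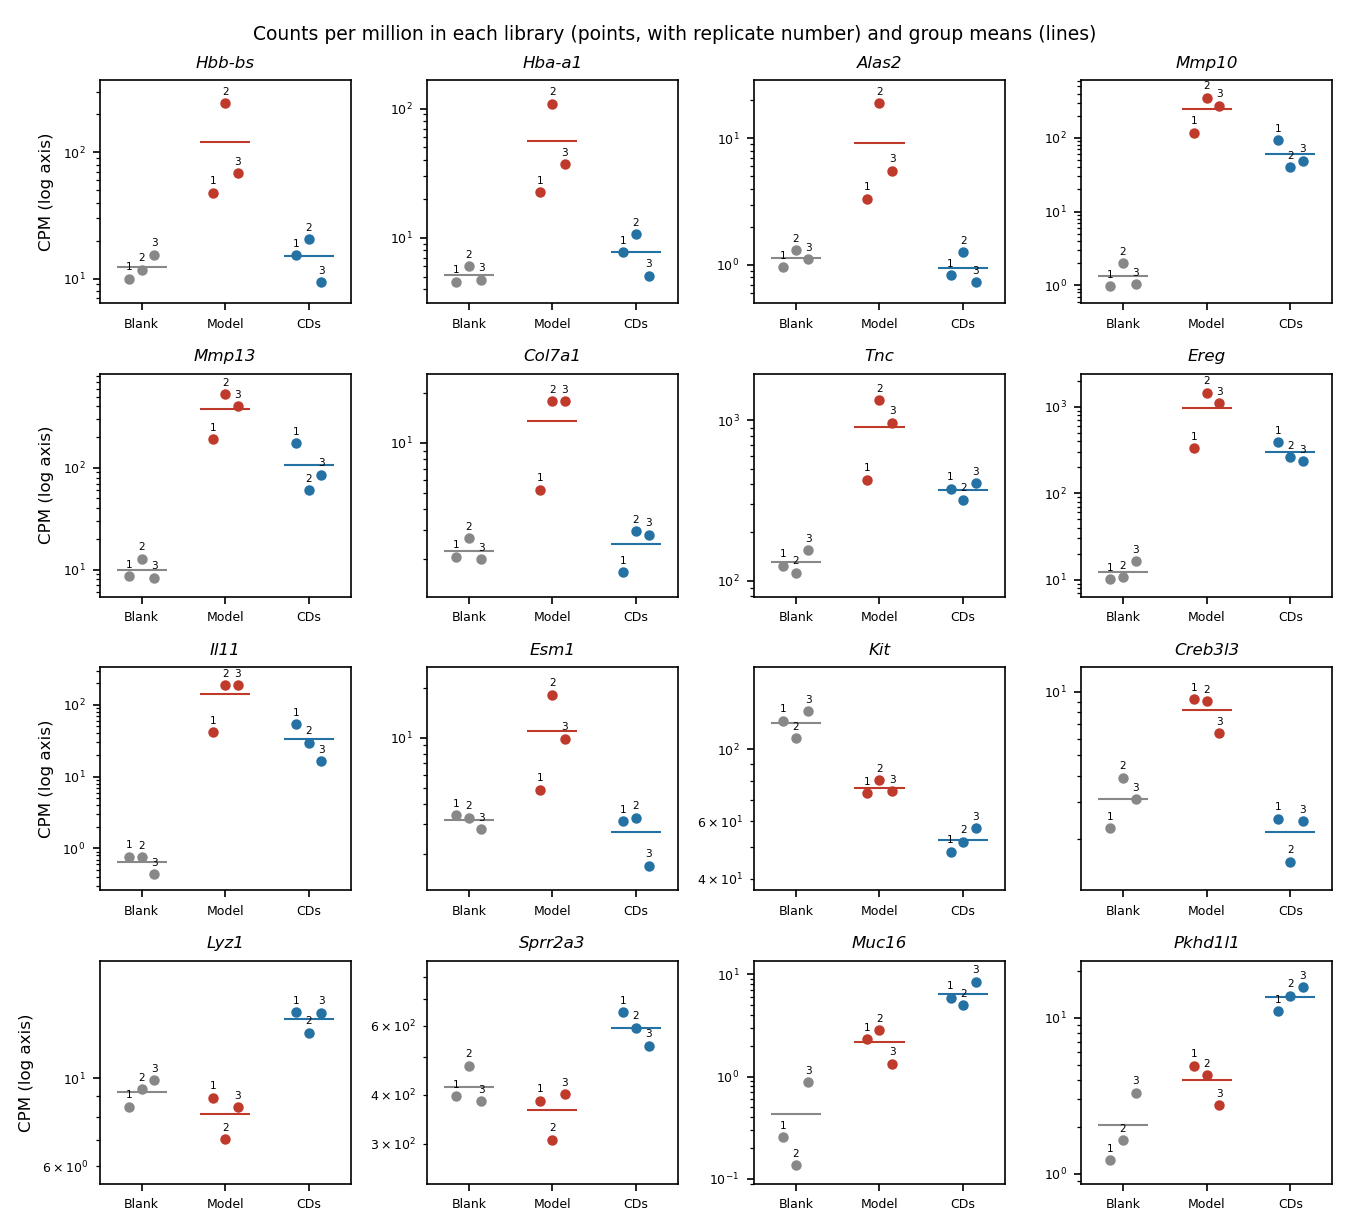
CPM on log axes for 16 genes in each Blank, Model and CDs library, points numbered by replicate and lines at group means. The globins, Alas2, Mmp10, Mmp13, Col7a1, Tnc, Esm1, Kit and Creb3l3 are lower in CDs than in Model without overlap, Ereg and Il11 overlap through Model 1 and CDs 1, and Lyz1, Sprr2a3, Muc16 and Pkhd1l1 are higher in CDs without overlap.

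Several genes of wound tissue were split by Model 1. Epiregulin (Ereg), a ligand of the EGF receptor, had 330.3, 1448 and 1101 CPM in Model and 392, 260.5 and 234 CPM in CDs, beside 10.2, 10.6 and 16.2 CPM in Blank. Model 2 and Model 3 were above every CDs library, while Model 1 lay below CDs 1. The log2 fold change was -1.70 ± 0.48 (unadjusted p = 0.00601; DESeq2 adjusted p = 0.0499). This was the lowest estimate of the 18 tested wound-associated and fetal-like epithelial genes. Of these 12 had a lower and 6 a higher estimate, and 0 lay without overlap. Their median was -0.13 (-0.27 without Model 1 to 0.07 without Model 2). Il11, which stromal cells release upon injury, had 41.5, 187 and 189 CPM in Model and 54.3, 29.6 and 16.5 CPM in CDs (log2FC -2.06 ± 0.57; unadjusted p = 0.00584), with the same overlap between Model 1 and CDs 1. Ptgs2, the inducible cyclooxygenase, had the lowest estimate of the Toll-like receptor and NF-kB list described below. It had 87.3, 513 and 475 CPM in Model and 199, 61.5 and 62.9 CPM in CDs (log2FC -1.73 ± 0.65).

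The interleukin-6 family showed that order too. Il6 had 12.998, 48.7 and 52.0 CPM in Model and 25.5, 11.8 and 11.5 CPM in CDs (log2FC -1.22 ± 0.49). Lif, which acts through the same coreceptor, had 12.8, 36.9 and 53.2 CPM in Model and 18.5, 13.99 and 12.4 CPM in CDs (log2FC -1.20 ± 0.42). In both Model 1 was among the CDs values. Il19, of the interleukin-10 family, was scarce but without overlap, with 1.09, 2.80 and 2.82 CPM in Model and 0.448, 0.538 and 0.368 CPM in CDs (log2FC -2.29 ± 0.48; DESeq2 adjusted p = 0.0499). It passed the filter on low counts through the Model libraries, which favours a lower estimate in CDs. Il22, which acts on epithelium and was named after its values were seen, was the 1 cytokine with an unadjusted p under 0.05 and a higher estimate in CDs. It had 2.03, 1.76 and 2.48 CPM in Model and 18.04, 2.39 and 5.22 CPM in CDs (log2FC 2.03 ± 0.81), so that CDs 1 stood far above the other 5 libraries and CDs 2 lay within the Model range. Tnf had 14.7, 11.3 and 9.65 CPM in Model and 22.6, 14.1 and 11.8 CPM in CDs (log2FC 0.44 ± 0.38; 95% interval -0.42 to 1.3), and its groups overlapped. Of 15 tested cytokine genes 4 were lower and 1 higher at an unadjusted p under 0.05, and the median was -0.47 (-0.93 to -0.11 over leaving out each library). Il1a, Il11, Il6, Lif and Il1rn were the 5 of 11 cytokine genes with a tabulated promoter that held the AP-1 core.

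Il1rl1, the receptor for interleukin-33, was called lower by DESeq2 although CDs 1 stood above Model 1: it had 95.1, 478 and 286 CPM in Model and 99.9, 31.3 and 45.7 CPM in CDs (log2FC -2.28 ± 0.59; DESeq2 adjusted p = 0.0144). It was -1.69 with Model 2 left out. Trpa1, an ion channel of irritant sensing that enterochromaffin cells and sensory nerves carry, had 18.6, 33.8 and 31.2 CPM in Model and 13.9, 7.77 and 11.4 CPM in CDs (log2FC -1.34 ± 0.28; DESeq2 adjusted p = 0.0104), with no overlap and Blank at 3.21, 3.22 and 4.65 CPM.

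Neutrophil markers were highest in 1 library of each treatment and overlapped between the groups. Their summed level was 694, 3718 and 946 CPM in Model and 1842, 827 and 841 CPM in CDs, with Model 2 highest and CDs 1 next. The calprotectin subunit S100a8 had 37.9, 641 and 80.4 CPM in Model and 219, 60.1 and 59.99 CPM in CDs (log2FC -1.17 ± 0.94; 95% interval -3.28 to 0.95). Lipocalin 2 (Lcn2), which binds bacterial iron carriers, had 49.6, 503 and 88.3 CPM in Model and 127, 37.4 and 36.6 CPM in CDs (log2FC -1.67 ± 0.83). The estimate was lower in CDs for 16 of 22 tested members, the groups overlapped for all of them, and 0 had an unadjusted p under 0.05 in either direction. The median of the list changed sign with 1 library: it was -0.40 with all libraries, 0.59 without Model 2 and -0.97 without CDs 1.

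Macrophage markers had no common direction. Lyz2, the lysozyme of macrophages, had 904, 1007 and 1179.5 CPM in Model and 1526, 1811 and 1222 CPM in CDs (log2FC 0.56 ± 0.20). Adgre1, which encodes F4/80, had 63.3, 59.6 and 80.9 CPM in Model and 96.5, 82.4 and 82.2 CPM in CDs (log2FC 0.36 ± 0.13). Both were higher in CDs without overlap. Cd68, a lysosomal protein of macrophages, had 69.1, 97.1 and 94.5 CPM in Model and 85.0, 79.8 and 89.7 CPM in CDs (log2FC -0.03 ± 0.13; 95% interval -0.34 to 0.27). Cd163, the scavenger receptor for hemoglobin bound to haptoglobin, had 40.7, 172 and 66.6 CPM in Model and 61.7, 24.5 and 40.1 CPM in CDs (log2FC -1.15 ± 0.56), and without Model 2 its log2 fold change was -0.35. Model 2, highest for Cd163, was also highest for the globins, and it held the highest of the 6 values for 3190 of the tested genes. Spp1, osteopontin, had 5.30, 29.9 and 27.2 CPM in Model and 7.93, 7.83 and 4.85 CPM in CDs (log2FC -1.60 ± 0.56). The median of the 22 tested markers was -0.01 (-0.22 without Model 1 to 0.11 without Model 2), near that of all genes.

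Among 26 tested chemokine genes 2 were higher and 1 lower at an unadjusted p under 0.05. Ccl19, a lymphoid tissue chemokine, had 2.03, 2.80 and 1.68 CPM in Model and 6.59, 4.48 and 3.75 CPM in CDs and was higher without overlap (log2FC 1.17 ± 0.47). Ccl22, which draws regulatory T cells, had 10.6, 11.8 and 13.01 CPM in Model and 10.6, 8.61 and 7.20 CPM in CDs and was lower with groups that met but did not overlap (log2FC -0.42 ± 0.18). Cxcl1, a neutrophil attractant, had 22.3, 118 and 61.2 CPM in Model and 41.7, 27.5 and 19.1 CPM in CDs (log2FC -1.19 ± 0.58). Cxcl2, of the same kind, had 16.8, 118 and 39.4 CPM in Model and 102, 18.2 and 11.8 CPM in CDs (log2FC -0.41 ± 0.84). Both overlapped between the groups, Cxcl2 being high in Model 2 and CDs 1.

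Lymphocyte genes were high in CDs 1. The summed B cell and plasma cell markers were 3299, 5611 and 4468 CPM in Model and 6979, 4314 and 3929.8 CPM in CDs. Those of T and natural killer cells were 126, 218 and 170.1 CPM in Model and 314, 118 and 129 CPM in CDs. The B cell surface gene Ms4a1 had 23.3, 32.2 and 36.9 CPM in Model and 79.2, 22.9 and 35.7 CPM in CDs (log2FC 0.57 ± 0.45). Cd8a, of cytotoxic T cells, had 3.92, 1.66 and 4.96 CPM in Model and 17.9, 4.48 and 3.90 CPM in CDs (log2FC 1.34 ± 0.79). The list medians changed sign without CDs 1, from 0.47 to -0.21 for B and plasma cells and from 0.33 to -0.41 for T and natural killer cells. Of the lymph node and follicle genes Glycam1, a ligand of L-selectin on high endothelial venules, had 1.23, 0.807 and 1.74 CPM in Model and 2.69, 2.87 and 3.16 CPM in CDs and was higher without overlap (log2FC 1.22 ± 0.42), at few reads. That list had a median of 0.47 (0.05 without CDs 1 to 0.67 without CDs 2). Foxp3, the factor of regulatory T cells, had 3.20, 6.84 and 4.02 CPM in Model and 3.58, 1.44 and 1.84 CPM in CDs (log2FC -1.04 ± 0.52), and CDs 1 overlapped with Model 1.

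Single genes of vessels and clotting were lower in CDs without overlap, while the medians of their lists came near 0 when certain single libraries were left out. Esm1, a proteoglycan of sprouting endothelial tip cells, had 4.87, 18.2 and 9.85 CPM in Model and 3.13, 3.29 and 1.69 CPM in CDs, the CDs values close to or under the Blank values of 3.41, 3.29 and 2.80 CPM. The groups did not overlap (fold 4.05; log2FC -2.02 ± 0.45; DESeq2 adjusted p = 0.0119), and the log2 fold change was -1.44 without Model 2. Lyve1, a marker of lymphatic endothelium and some macrophages, had 104, 180.4 and 115 CPM in Model and 79.6, 72.0 and 85.1 CPM in CDs (log2FC -0.75 ± 0.19), also without overlap. The adhesion molecule Selp had 29.8, 62.8 and 47.5 CPM in Model and 34.7, 25.5 and 23.5 CPM in CDs (log2FC -0.74 ± 0.26), where Model 1 lay among the CDs libraries.

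The pan-endothelial gene Pecam1 differed little, with 138, 199.8 and 183 CPM in Model and 158, 167 and 132 CPM in CDs (log2FC -0.19 ± 0.15; 95% interval -0.52 to 0.14). Prox1, the transcription factor of lymphatic endothelium, had 10.7, 15.9 and 15.2 CPM in Model and 7.04, 7.23 and 11.5 CPM in CDs (log2FC -0.70 ± 0.23), only CDs 3 reaching the lowest Model value. Serpine2 (protease nexin-1), an inhibitor of thrombin and plasminogen activators, had 68.8, 370.2 and 173 CPM in Model and 49.8, 44.7 and 48.2 CPM in CDs (log2FC -2.1 ± 0.52; DESeq2 adjusted p = 0.0119; -1.34 without Model 2), with no overlap. Of 20 tested endothelial genes 15 had a lower estimate, 4 were lower and 1 higher at an unadjusted p under 0.05, and 1 lay lower and 1 higher without overlap. The higher one was Ackr1, a chemokine-binding receptor of venules that was named after its values were seen, with 7.77, 10.02 and 8.58 CPM in Model and 11.3, 12.6 and 10.95 CPM in CDs (log2FC 0.40 ± 0.16). Esm1 is not on the list. The median of that list was -0.16 (-0.31 without Model 1 to -0.04 without Model 3). Of 25 clotting, fibrinolysis and platelet genes 21 had a lower estimate, 3 were lower and 0 higher at an unadjusted p under 0.05, and the median was -0.26 (-0.44 without Model 1 to -0.06 without Model 2).

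Kit, the stem cell factor receptor of mast cells and of the interstitial cells of Cajal that pace the gut, was lower in CDs with little spread inside the groups. It had 73.1, 80.3 and 74.2 CPM in Model and 48.4, 51.9 and 57.2 CPM in CDs, and Blank was higher than both at 122, 108 and 131 CPM. The fold was 1.45 (log2FC -0.53 ± 0.1; unadjusted p = 0.000594; DESeq2 adjusted p = 0.00401), and the log2 fold change lay between -0.59 and -0.48 when any 1 library was left out. The mast cell proteases Cpa3 and Mcpt2 were rare and overlapped between the groups. Cpa3 had 2.40, 2.52 and 2.15 CPM in Model and 2.18, 2.69 and 1.98 CPM in CDs (log2FC -0.04 ± 0.40). Mcpt2 had 2.69, 8.31 and 3.62 CPM in Model and 3.65, 1.91 and 1.32 CPM in CDs (log2FC -1.09 ± 0.85).

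Smooth muscle genes were highest in CDs 2 and CDs 3 and lowest in CDs 1. The summed level of the list was 6198, 4329.9 and 4580.3 CPM in Model and 3865, 9052 and 8762 CPM in CDs, beside 4796, 5398 and 6508 CPM in Blank. Desmin (Des) had 498, 328 and 342 CPM in Model and 266, 984 and 863 CPM in CDs (log2FC 0.86 ± 0.41; unadjusted p = 0.0689). Actg2, the enteric smooth muscle actin, had 418, 303 and 270.2 CPM in Model and 237, 722 and 868 CPM in CDs (log2FC 0.88 ± 0.41). CDs 1 was below every Model library in both. All 18 tested members had a higher estimate in CDs, 1 with an unadjusted p under 0.05, and the median was 0.54 (0.3 without CDs 2 to 0.84 without CDs 1). That member was Hhip, which binds hedgehog ligands, with 17.5, 6.41 and 11.9 CPM in Model and 25.1, 29.7 and 18.3 CPM in CDs (log2FC 1.04 ± 0.35), Blank being higher at 40.5, 62.0 and 42.8 CPM. The amount of muscle wall in each piece of colon was not tested.

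Enteric neuron genes had lower estimates in CDs for 16 of 18 tested members (median -0.19; -0.36 without CDs 2 to -0.06 without Model 2). Nos1, the neuronal nitric oxide synthase, had 40.7, 55.5 and 49.4 CPM in Model and 30.9, 38.3 and 28.2 CPM in CDs (log2FC -0.58 ± 0.22). The neuropeptide gene Cartpt had 2.61, 7.79 and 2.75 CPM in Model and 2.43, 1.20 and 1.32 CPM in CDs (log2FC -1.42 ± 0.57; -0.70 without Model 2). Neither overlapped between the groups. Elavl4, an RNA-binding protein of neurons, had 16.5, 25.4 and 22.5 CPM in Model and 11.6, 17.5 and 14.7 CPM in CDs (log2FC -0.55 ± 0.22), CDs 2 lying above Model 1.

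All 12 tested fat cell genes had a lower estimate in CDs, not all past an unadjusted p of 0.05. Fabp4, the fatty acid carrier of adipocytes and capillaries, had 127, 133 and 106 CPM in Model and 74.7, 104 and 57.1 CPM in CDs (log2FC -0.64 ± 0.20). Retn (resistin) had 7.55, 2.09 and 5.30 CPM in Model and 1.02, 1.32 and 0.515 CPM in CDs (log2FC -2.35 ± 0.72). Cidec, a lipid droplet protein, had 26.4, 10.02 and 16.4 CPM in Model and 7.68, 6.46 and 2.28 CPM in CDs (log2FC -1.67 ± 0.52). In these 3 the groups did not overlap. Adiponectin (Adipoq) had 29.5, 3.32 and 15.3 CPM in Model and 4.16, 4.13 and 1.84 CPM in CDs (log2FC -2.23 ± 0.73), and Model 2 lay within the CDs range. Of 12 members 8 had an unadjusted p under 0.05 and 6 no overlap, and the median was -0.92 (-1.25 to -0.63 over leaving out each library). Model 1 and Model 3, the libraries with most pancreatic RNA, also held the highest summed fat cell levels, with 549.8, 433 and 549 CPM in Model and 337, 353 and 245 CPM in CDs. The mean log2 CPM of the list, minus that of Blank, was 2.11, 0.79 and 1.77 in Model and 0.68, 0.76 and -0.10 in CDs. On that measure Model 2 lay near CDs 1 and CDs 2, and the difference came mostly with Model 1 and Model 3. How much outer fat was dissected with each colon was not tested.

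Pancreatic acinar genes differed through Model 1 and Model 3 alone. Their summed level was 10037, 30.3 and 83794 CPM in Model and 421, 144 and 142 CPM in CDs, and 163, 229 and 165 CPM in Blank. All 19 tested members had an unadjusted p under 0.05 and none was without overlap, since Model 2 was as low as the CDs libraries or lower. Pnlip, the lipase that pancreas secretes, had 1278, 0 and 11101 CPM in Model and 20.7, 0 and 0 CPM in CDs. The 10 genes with the largest SD within Model, among genes with a mean of at least 5 FPKM, were all of this kind. Reg3b and Reg3g, antibacterial lectins of gut epithelium that the pancreas also makes, moved with these libraries. Reg3b had 121, 41.9 and 777 CPM in Model and 27.8, 8.25 and 29.995 CPM in CDs (log2FC -3.83 ± 1.3; -1.89 without Model 3), with no overlap. Reg3g had 28.2, 11.2 and 82.7 CPM in Model and 5.44, 4.42 and 12.9 CPM in CDs (log2FC -2.43 ± 1.01), with CDs 3 above Model 2. Both were highest in Model 3. The part of pancreatic RNA in their difference was not tested.

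Epithelial genes split the libraries across the treatments. The goblet cell list summed to 40261, 16219 and 26684 CPM in Model and 18746, 30182 and 40839.5 CPM in CDs, so that Model 1 and CDs 3 were highest and Model 2 and CDs 1 lowest. Muc2, the gel-forming mucin, had 9125, 3915 and 5243 CPM in Model and 3963, 4829 and 7704 CPM in CDs (log2FC -0.15 ± 0.39; 95% interval -1.04 to 0.74). Clca1, a goblet cell protein that processes mucus, had 7481, 2033 and 5771 CPM in Model and 3698, 5623 and 8357 CPM in CDs (log2FC 0.21 ± 0.53; 95% interval -0.99 to 1.41). Neither interval leaves out a difference in either direction. Slc26a3, the chloride-bicarbonate exchanger of surface colonocytes, had 632, 257 and 227 CPM in Model and 243, 777 and 1439 CPM in CDs (log2FC 1.14 ± 0.59), with CDs 1 among the 3 lowest. The median was 0.27 for the absorptive list (0.04 without Model 2 to 0.6 without Model 1) and 0.02 for the goblet list (-0.21 without Model 2 to 0.33 without Model 1). Of 28 tested absorptive genes 21 had a higher and 7 a lower estimate. Yet 0 of them lay higher and 4 lower without overlap. At an unadjusted p under 0.05 there were 0 higher and 1 lower.

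Barrier genes overlapped throughout. Ocln (occludin) had 111, 60.1 and 66.5 CPM in Model and 52.3, 104 and 132 CPM in CDs (log2FC 0.28 ± 0.32; 95% interval -0.45 to 1.02). Tjp1 (ZO-1), which anchors it to the cytoskeleton, had 267, 205 and 223 CPM in Model and 216, 245 and 277 CPM in CDs (log2FC 0.09 ± 0.14; 95% interval -0.22 to 0.40). In neither was a treatment group uniformly higher. The claudin Cldn1 had 21.3, 31.6 and 17.1 CPM in Model and 26.2, 21.2 and 14.04 CPM in CDs (log2FC -0.19 ± 0.38). The pore-forming Cldn2 had 59.5, 3.80 and 43.5 CPM in Model and 28.6, 8.55 and 10.4 CPM in CDs (log2FC -1.16 ± 0.79). None of 21 tested junction genes had an unadjusted p under 0.05 or groups that lay apart, and the median was 0.24 (0.03 to 0.55 over leaving out each library).

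A few transport genes of the surface differed from that pattern. Scnn1g, the gamma subunit of the epithelial sodium channel, had 8.42, 11.2 and 7.58 CPM in Model and 4.67, 3.29 and 1.69 CPM in CDs (log2FC -1.49 ± 0.51; unadjusted p = 0.0169), beside 0.450, 2.54 and 2.14 CPM in Blank. The beta subunit Scnn1b had 9.29, 11.2 and 8.98 CPM in Model and 6.78, 8.67 and 7.28 CPM in CDs (log2FC -0.38 ± 0.17). Both were lower in CDs without overlap. In the crypt Lgr5, the stem cell marker, was rare with 1.52, 0.712 and 1.01 CPM in Model and 0.256, 0.658 and 0.882 CPM in CDs, beside 12.7, 17.8 and 14.1 CPM in Blank. Smoc2 and Lrig1, also crypt base genes, were lower in CDs without overlap. Smoc2 had 29.0, 61.1 and 40.2 CPM in Model and 19.3, 25.8 and 26.1 CPM in CDs (log2FC -0.88 ± 0.26). Lrig1 had 111, 95.6 and 111 CPM in Model and 86.5, 90.3 and 89.3 CPM in CDs (log2FC -0.25 ± 0.09). Smoc2 is made by stroma too. Of the 18 tested crypt stem cell and Wnt target genes 9 had a higher and 9 a lower estimate. Without overlap 0 lay higher and 2 lower. The median was 0.03 (-0.04 without CDs 1 to 0.13 without Model 3), near that of all genes.

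Cell cycle genes were highest in CDs 1 among the DSS-treated libraries. Mki67, a protein of dividing cells, had 179, 112 and 193 CPM in Model and 326, 92.7 and 111 CPM in CDs, against 417, 587 and 485 CPM in Blank. Top2a, a topoisomerase of such cells, had 105, 62.7 and 125 CPM in Model and 211, 60.1 and 67.6 CPM in CDs. CDs 1 held the highest DSS-treated values and CDs 2 and CDs 3 lay with Model 2. The estimate was higher in CDs for 23 of 24 genes with a median of 0.20, and without CDs 1 the median was -0.44.

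Mitochondrial genes had small estimates in 1 direction. All 28 nuclear-encoded genes of oxidative phosphorylation and all 13 mitochondrially encoded protein genes had higher estimates in CDs, with medians of 0.16 and 0.16, and 1 of them, Ndufs7, had an unadjusted p under 0.05. Ndufs7, a complex I subunit, had 24.1, 20.1 and 21.2 CPM in Model and 25.4, 31.0 and 25.2 CPM in CDs (log2FC 0.32 ± 0.12). The mitochondrially encoded mt-Co1 had 25726, 17608 and 18714 CPM in Model and 15733, 29379 and 28655 CPM in CDs (log2FC 0.25 ± 0.26), so that CDs 1 was the lowest library and CDs 2 and CDs 3 the highest. In Atp5b, the beta subunit of the ATP synthase, Model 1 was highest, with 966, 688 and 723 CPM in Model and 747, 894 and 943 CPM in CDs (log2FC 0.12 ± 0.17). Without CDs 1 the medians were 0.27 and 0.39, and without CDs 2 they were 0.08 and 0.01.

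**Figure D4:**
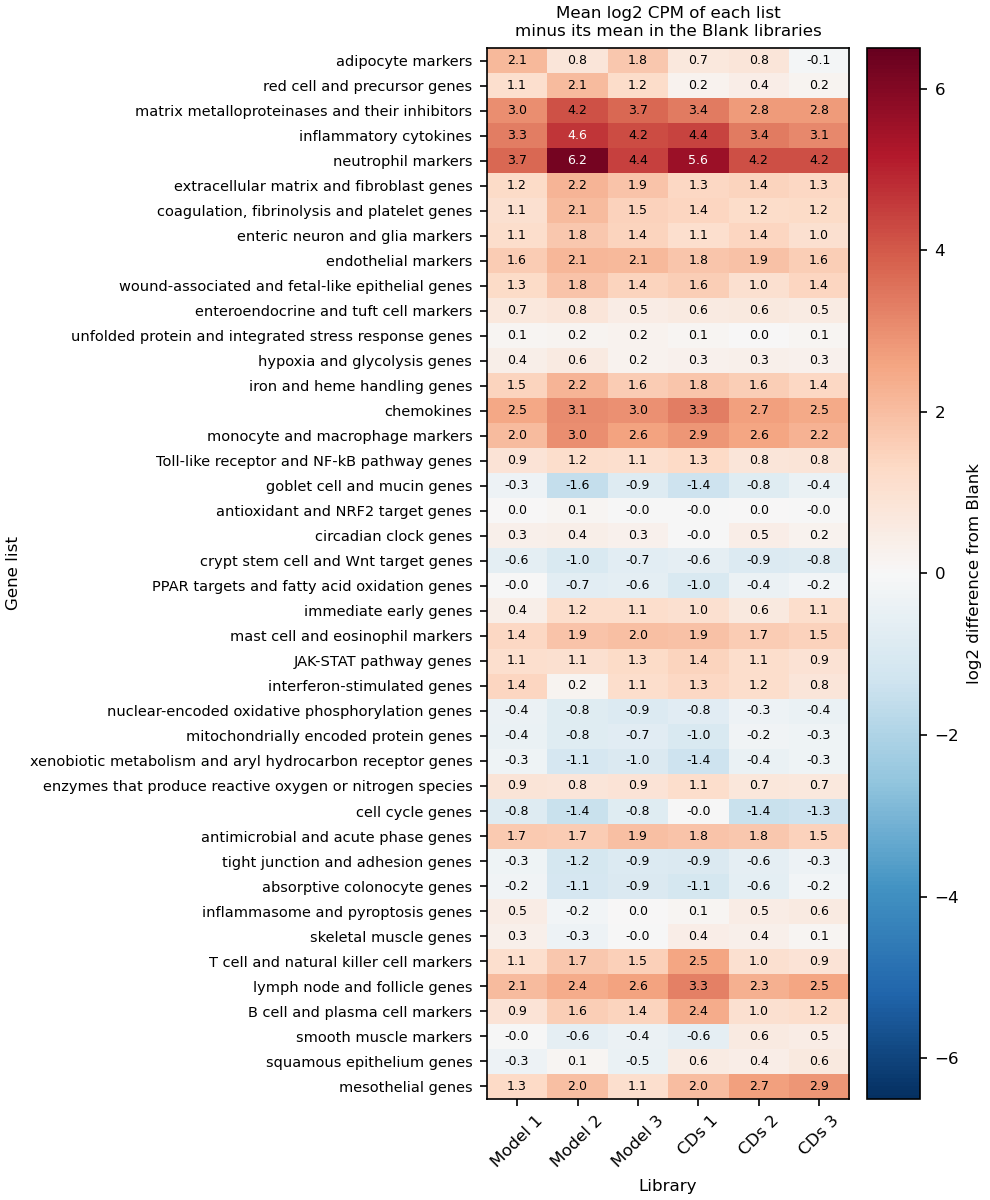
Mean log2 CPM of each gene list (rows) in each DSS-treated library (columns) minus its mean in the Blank libraries, red above and blue below Blank. Goblet, absorptive, junction and mitochondrial rows are nearest to Blank in Model 1, CDs 2 and CDs 3, and the neutrophil row is highest in Model 2 and CDs 1.

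Several of the genes higher in CDs are epithelial or mesothelial. Lyz1, the lysozyme of Paneth cells, had 8.93, 7.03 and 8.45 CPM in Model and 14.6, 13.03 and 14.6 CPM in CDs (log2FC 0.8 ± 0.14; unadjusted p = 0.000332; DESeq2 adjusted p = 0.00401), with Blank at 8.49, 9.40 and 9.89 CPM. Reads of the near-identical Lyz2, which was also higher, could have been counted for it. Sprr2a3, a small proline-rich protein of stressed gut epithelium, had 386, 307 and 401 CPM in Model and 651, 593 and 533 CPM in CDs (log2FC 0.70 ± 0.15; DESeq2 adjusted p = 0.0119), Blank being at 397, 474 and 385 CPM, and copies of its family are hard to tell apart. Cdh3 (P-cadherin) had 3.12, 3.32 and 3.35 CPM in Model and 5.69, 8.43 and 8.16 CPM in CDs (log2FC 1.18 ± 0.22; DESeq2 adjusted p = 0.00727).

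Mesothelium, the sheet that covers the outer gut wall, had the highest median of the lists. The mucin Muc16 had 2.32, 2.85 and 1.34 CPM in Model and 5.89, 4.96 and 8.45 CPM in CDs (log2FC 1.55 ± 0.46). Upk3b had 5.52, 5.32 and 2.61 CPM in Model and 7.74, 12.6 and 20.9 CPM in CDs (log2FC 1.61 ± 0.61). Gpm6a had 11.8, 11.2 and 8.38 CPM in Model and 14.01, 19.0 and 24.8 CPM in CDs (log2FC 0.88 ± 0.26). These 3 and Lrrn4 and Upk1b, the last 2 named after their values were seen, were the 5 of 9 tested members higher without overlap. Msln (mesothelin) did not follow, with 6.68, 27.8 and 3.42 CPM in Model and 10.1, 11.7 and 17.4 CPM in CDs (log2FC 0.03 ± 0.64). The median was 1.09 (0.88 to 1.37 over leaving out each library). Pkhd1l1, named after its values were seen and called by DESeq2 (adjusted p = 0.00221), had 4.94, 4.27 and 2.75 CPM in Model and 11.003, 13.9 and 15.7 CPM in CDs, a 3.39-fold difference. How much serosa each piece of colon held was not tested.

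Squamous keratin genes, which the lining of the anal canal makes, had a median of 1.05 over 9 tested members, 21 being listed. Krt14 had 1.23, 0.807 and 0.469 CPM in Model and 1.86, 2.93 and 6.18 CPM in CDs (log2FC 2.12 ± 0.6). Krt17 had 1.09, 0.712 and 0.603 CPM in Model and 0.512, 3.05 and 2.72 CPM in CDs (log2FC 1.39 ± 0.59), its groups overlapping through CDs 1, and Krt5 was at 0, 0.665 and 0.134 CPM in Model 1 to 3 and 0.0640, 0.957 and 0.294 CPM in CDs 1 to 3. Trp63, the master factor of that epithelium, did not pass the filter. Sprr2a3 above is on this list and the only abundant member, and the median ran from 0.63 without CDs 1 to 1.43 without Model 2.

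The other higher genes with the smallest p were of scattered function. Id1, a target of bone morphogenetic protein signals, had 62.9, 36.6 and 64.0 CPM in Model and 78.7, 91.1 and 120.0 CPM in CDs (log2FC 0.83 ± 0.23), with Blank higher than both at 158, 143 and 129 CPM. Tinagl1, a matrix protein of basement membranes, had 109, 95.5 and 95.6 CPM in Model and 127, 149.96 and 128 CPM in CDs (log2FC 0.43 ± 0.1). Tat, tyrosine aminotransferase, had 51.6, 29.9 and 35.7 CPM in Model and 85.5, 56.0 and 78.1 CPM in CDs (log2FC 0.91 ± 0.22). Pltp, the phospholipid transfer protein, had 33.3, 35.4 and 39.5 CPM in Model and 48.7, 54.7 and 41.5 CPM in CDs (log2FC 0.42 ± 0.12). Timm13, a chaperone of mitochondrial protein import, had 18.3, 18.7 and 17.2 CPM in Model and 25.3, 26.1 and 21.0 CPM in CDs (log2FC 0.42 ± 0.12), and Ralgps2, Spata13, Lmbr1l and Ttll12 had log2 fold changes of 0.39, 0.39, 0.46 and 0.36. None of these 9 overlapped between the groups, which the rule that named them required.

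Antioxidant genes, among the targets often studied for carbon dots, showed no common shift. Nfe2l2, which encodes NRF2, had 219, 189.7 and 219 CPM in Model and 197, 202 and 227 CPM in CDs (log2FC -0.01 ± 0.11; 95% interval -0.26 to 0.25). Its target Gclc, of glutathione synthesis, had 82.5, 112 and 89.2 CPM in Model and 89.1, 68.2 and 99.4 CPM in CDs (log2FC -0.15 ± 0.16; 95% interval -0.51 to 0.22). Nqo1, a quinone reductase, had 19.8, 12.3 and 18.3 CPM in Model and 11.5, 12.3 and 16.5 CPM in CDs (log2FC -0.32 ± 0.25; 95% interval -0.89 to 0.25). The interval of Nfe2l2 was the narrowest of these. Hmox1, heme oxygenase 1, varied more, with 31.7, 117 and 45.5 CPM in Model and 75.0, 82.1 and 41.2 CPM in CDs (log2FC 0.03 ± 0.45; 95% interval -0.99 to 1.04), Model 1 and Model 2 being the lowest and the highest library. Over 32 tested members the median was 0.02 (-0.03 without Model 3 to 0.07 without Model 2), equal to that of all genes at 2 decimals, with 0 higher and 2 lower at an unadjusted p under 0.05.

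Those 2 were Gsta3 and Sod3. Gsta3, a glutathione transferase, had 10.4, 4.37 and 9.05 CPM in Model and 3.90, 2.63 and 2.87 CPM in CDs (log2FC -1.33 ± 0.32; DESeq2 adjusted p = 0.0328), far below Blank in both groups (45.3, 35.0 and 32.5 CPM). Sod3, the extracellular superoxide dismutase of vessel and stromal matrix, had 90.8, 265 and 179 CPM in Model and 106, 93.3 and 76.5 CPM in CDs (log2FC -0.96 ± 0.32), where Model 1 lay among the CDs libraries. Among enzymes that make reactive oxygen or nitrogen species Cybb, the phagocyte oxidase, had 120.2, 139.6 and 178 CPM in Model and 234, 167 and 139 CPM in CDs (log2FC 0.3 ± 0.24). Nos2, the inducible nitric oxide synthase, had 56.7, 69.4 and 51.8 CPM in Model and 153, 37.7 and 36.2 CPM in CDs (log2FC 0.35 ± 0.9). Nos2 was highest in CDs 1. Duox2, the dual oxidase of gut epithelium, had 454, 299 and 311 CPM in Model and 464, 313 and 316 CPM in CDs (log2FC 0.04 ± 0.29; 95% interval -0.62 to 0.69). Nox4, an oxidase of stromal cells, was lower without overlap at 3.05, 5.13 and 3.42 CPM in Model and 1.86, 2.57 and 1.69 CPM in CDs (log2FC -0.92 ± 0.36).

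Pathway genes of inflammatory signalling also lay near the background. The medians were -0.0049 over 24 Toll-like receptor and NF-kB genes (-0.14 without CDs 1 to 0.08 without CDs 2), 0.06 over 20 JAK-STAT genes (-0.1 without CDs 1 to 0.11 without Model 3) and 0.06 over 27 interferon-stimulated genes (-0.16 without Model 2 to 0.37 without Model 1). Tlr4 had 64.8, 71.5 and 73.3 CPM in Model and 77.2, 59.6 and 71.2 CPM in CDs (log2FC -0.01 ± 0.13; 95% interval -0.31 to 0.28). Inflammasome and pyroptosis genes had a higher estimate in 19 of 20 members (median 0.28; 0.12 without Model 2 to 0.49 without Model 1), 3 without overlap and 0 with an unadjusted p under 0.05. Their summed level was 3931, 1910 and 2212 CPM in Model and 2210, 3887 and 4035 CPM in CDs. Blank had 3393, 4837 and 2986 CPM. As in the epithelial lists, the sums were highest in Model 1, CDs 2 and CDs 3, across the treatments. Nlrp10, an epithelial sensor of this family, had 7.41, 4.65 and 5.36 CPM in Model and 7.74, 8.13 and 11.9 CPM in CDs (log2FC 0.68 ± 0.32), higher in CDs without overlap. Gsdmd, the pore-forming gasdermin, had 227, 162 and 170.0 CPM in Model and 223, 223 and 218 CPM in CDs (log2FC 0.25 ± 0.15). Nlrp3, a sensor of cell damage, had 9.004, 14.4 and 13.4 CPM in Model and 24.9, 12.4 and 9.63 CPM in CDs (log2FC 0.35 ± 0.35). Both overlapped.

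Stress and early response genes differed one by one. Herpud1, of the pathway that degrades misfolded proteins of the endoplasmic reticulum, had 157, 169 and 173 CPM in Model and 124, 131 and 127 CPM in CDs (log2FC -0.38 ± 0.09; DESeq2 adjusted p = 0.016), and the CDs values were at the Blank level of 126, 132 and 113 CPM. Creb3l3, a membrane-bound transcription factor of that organelle, had the smallest DESeq2 adjusted p of all genes (4.47e-06). It had 9.22, 9.07 and 6.37 CPM in Model and 2.49, 1.55 and 2.43 CPM in CDs, beside 2.25, 3.91 and 3.10 CPM in Blank, a fold of 3.81 (log2FC -1.93 ± 0.29; unadjusted p = 8.44e-05). Its log2 fold change lay between -2.08 and -1.74 when any 1 library was left out. The unfolded protein list as a whole had a median of -0.07 (-0.12 without CDs 1 to -0.08 without CDs 3), with Hspa5 at 801, 979.7 and 804 CPM in Model and 839, 690.1 and 639.5 CPM in CDs (log2FC -0.25 ± 0.15).

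Nr4a2, an orphan nuclear receptor induced by many stimuli, had 17.4, 48.3 and 43.2 CPM in Model and 15.5, 10.6 and 12.6 CPM in CDs (log2FC -1.49 ± 0.36; DESeq2 adjusted p = 0.0265). Atf3, another early response gene, had 21.2, 18.3 and 26.5 CPM in Model and 28.3, 34.5 and 103 CPM in CDs (log2FC 1.32 ± 0.46), mostly through CDs 3, without which it was 0.52. Per1, a clock gene, had 60.3, 80.5 and 63.6 CPM in Model and 52.1, 31.5 and 28.3 CPM in CDs (log2FC -0.87 ± 0.25). The transcription factors Klf15 and Zbtb16 were called lower by DESeq2 and named after their values were seen. Klf15 had 8.13, 6.88 and 13.8 CPM in Model and 3.01, 3.95 and 1.69 CPM in CDs (log2FC -1.72 ± 0.39). Zbtb16 had 60.5, 42.5 and 24.2 CPM in Model and 18.2, 20.2 and 13.2 CPM in CDs (log2FC -1.3 ± 0.34). In Nr4a2, Per1, Klf15 and Zbtb16 the CDs values were lower without overlap, and in Atf3 they were higher without overlap. The clock list as a whole had a median of 0.02 (-0.20 without CDs 2 to 0.11 without CDs 1), and its core gene Arntl had 33.9, 32.7 and 26.7 CPM in Model and 26.0, 28.0 and 51.6 CPM in CDs (log2FC 0.18 ± 0.27).

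Hormone cells and metabolic genes added a few members apart. Gcg, which encodes the glucagon-like peptides of L cells, had 232, 207 and 177 CPM in Model and 134, 119.6 and 137 CPM in CDs (log2FC -0.66 ± 0.27; unadjusted p = 0.0404), lower in CDs without overlap. Tph1, the serotonin-making enzyme of enterochromaffin cells, had 45.8, 50.4 and 39.2 CPM in Model and 77.1, 43.1 and 94.8 CPM in CDs (log2FC 0.67 ± 0.26; unadjusted p = 0.0302), the higher estimate coming with CDs 1 and CDs 3 while CDs 2 lay within the Model range. Chga, a granule protein common to hormone cells, overlapped with 96.7, 122 and 73.4 CPM in Model and 74.1, 86.1 and 119.8 CPM in CDs (log2FC -0.06 ± 0.21). The 16 tested hormone and tuft cell genes had a median of -0.12 (-0.22 without CDs 2 to -0.02 without CDs 1).

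Pdk4, which restrains pyruvate use and is a target of PPAR receptors, had 35.4, 15.8 and 17.6 CPM in Model and 6.65, 9.57 and 12.4 CPM in CDs (log2FC -1.26 ± 0.40), lower in CDs without overlap and near the Blank values of 10.5, 6.45 and 15.0 CPM. Angptl4, another such target and an inhibitor of lipoprotein lipase, had 33.3, 44.2 and 48.9 CPM in Model and 35.8, 26.1 and 18.6 CPM in CDs (log2FC -0.65 ± 0.23), only CDs 1 exceeding a Model library. Ppargc1a, a coactivator of mitochondrial genes, had 31.5, 15.0 and 12.7 CPM in Model and 8.38, 41.0 and 52.6 CPM in CDs (log2FC 0.79 ± 0.58), with CDs 1 the lowest of the 6. Of the xenobiotic genes Ugt1a6a, a glucuronidating enzyme induced by the aryl hydrocarbon receptor, was rare and higher in CDs without overlap, with 1.74, 1.38 and 1.07 CPM in Model and 2.56, 2.99 and 2.21 CPM in CDs (log2FC 0.89 ± 0.24), both groups below the Blank values of 7.20, 6.65 and 7.23 CPM. Another target of that receptor, Cyp1a1, had 5.95, 0.332 and 3.28 CPM in Model and 1.86, 4.48 and 1.47 CPM in CDs (log2FC -0.25 ± 0.78). The receptor Ahr itself had 52.9, 54.2 and 78.6 CPM in Model and 67.0, 55.9 and 61.9 CPM in CDs (log2FC -0.01 ± 0.17; 95% interval -0.38 to 0.37). The medians were 0.04 over 23 PPAR and fatty acid oxidation genes (-0.09 without CDs 3 to 0.26 without Model 1) and 0.18 over 24 xenobiotic genes (-0.13 without CDs 3 to 0.53 without Model 1).

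Hypoxia and iron genes were near the background but for single members. Ndrg1, a stress-induced gene of hypoxia, had 116, 132 and 91.0 CPM in Model and 60.4, 73.2 and 75.0 CPM in CDs (log2FC -0.70 ± 0.16; DESeq2 adjusted p = 0.0194). Vegfa, the main growth factor of vessels, had 81.8, 98.6 and 93.1 CPM in Model and 71.2, 77.1 and 77.8 CPM in CDs (log2FC -0.28 ± 0.09; unadjusted p = 0.014). Both were lower in CDs without overlap, while Slc2a1, the glucose transporter, overlapped with 129, 138 and 114 CPM in Model and 118, 103 and 125 CPM in CDs (log2FC -0.14 ± 0.12). Transferrin (Trf) had 156, 226 and 209 CPM in Model and 176, 122 and 97.9 CPM in CDs (log2FC -0.58 ± 0.22). Haptoglobin (Hp), which binds free hemoglobin, had 65.3, 307 and 124 CPM in Model and 131, 94.4 and 45.2 CPM in CDs (log2FC -0.87 ± 0.55). For Hp the groups overlapped. Model 2 was highest, as in the globins, and CDs 1 was next, as in the summed neutrophil markers. The medians were -0.07 over 20 hypoxia and glycolysis genes (-0.16 without Model 3 to 0.03 without Model 2) and -0.03 over 19 iron and heme genes (-0.1 without Model 3 to 0.02 without CDs 3).

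The other DESeq2 calls described are of mixed function. Fam13a had 27.2, 30.4 and 23.6 CPM in Model and 11.003, 13.03 and 17.0 CPM in CDs (log2FC -0.99 ± 0.20; DESeq2 adjusted p = 0.00401), Blank being higher at 41.4, 52.5 and 60.6 CPM. Ggt1, gamma-glutamyltransferase, had 9.80, 10.6 and 25.4 CPM in Model and 5.44, 1.97 and 2.13 CPM in CDs (log2FC -2.26 ± 0.49), highest in Model 3, the library with most pancreatic reads, and -1.68 without it. The part of pancreatic RNA in that difference was not tested. The acute phase protein Orm1 had 2.18, 2.80 and 0.737 CPM in Model and 0.128, 0.359 and 0.0735 CPM in CDs (log2FC -3.26 ± 0.67). Like Il19, it passed the filter on low counts through the Model libraries. Atp2a2 and Slc3a1 are named after their values were seen. Atp2a2, the calcium pump of the endoplasmic reticulum, had a small and tight difference with 550.2, 577 and 559 CPM in Model and 492, 481 and 455 CPM in CDs (log2FC -0.24 ± 0.1; DESeq2 adjusted p = 0.0461). Slc3a1, a carrier subunit for dibasic amino acids, had 8.21, 3.89 and 4.49 CPM in Model and 0.832, 0.419 and 1.69 CPM in CDs (log2FC -2.51 ± 0.72). Each lay lower in CDs without overlap. Of the 5 genes that DESeq2 called higher, Tcaf3 had reads in CDs 2 alone among the 6 libraries (0.359 CPM) and did not pass the filter of the main test.

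**Figure D5:**
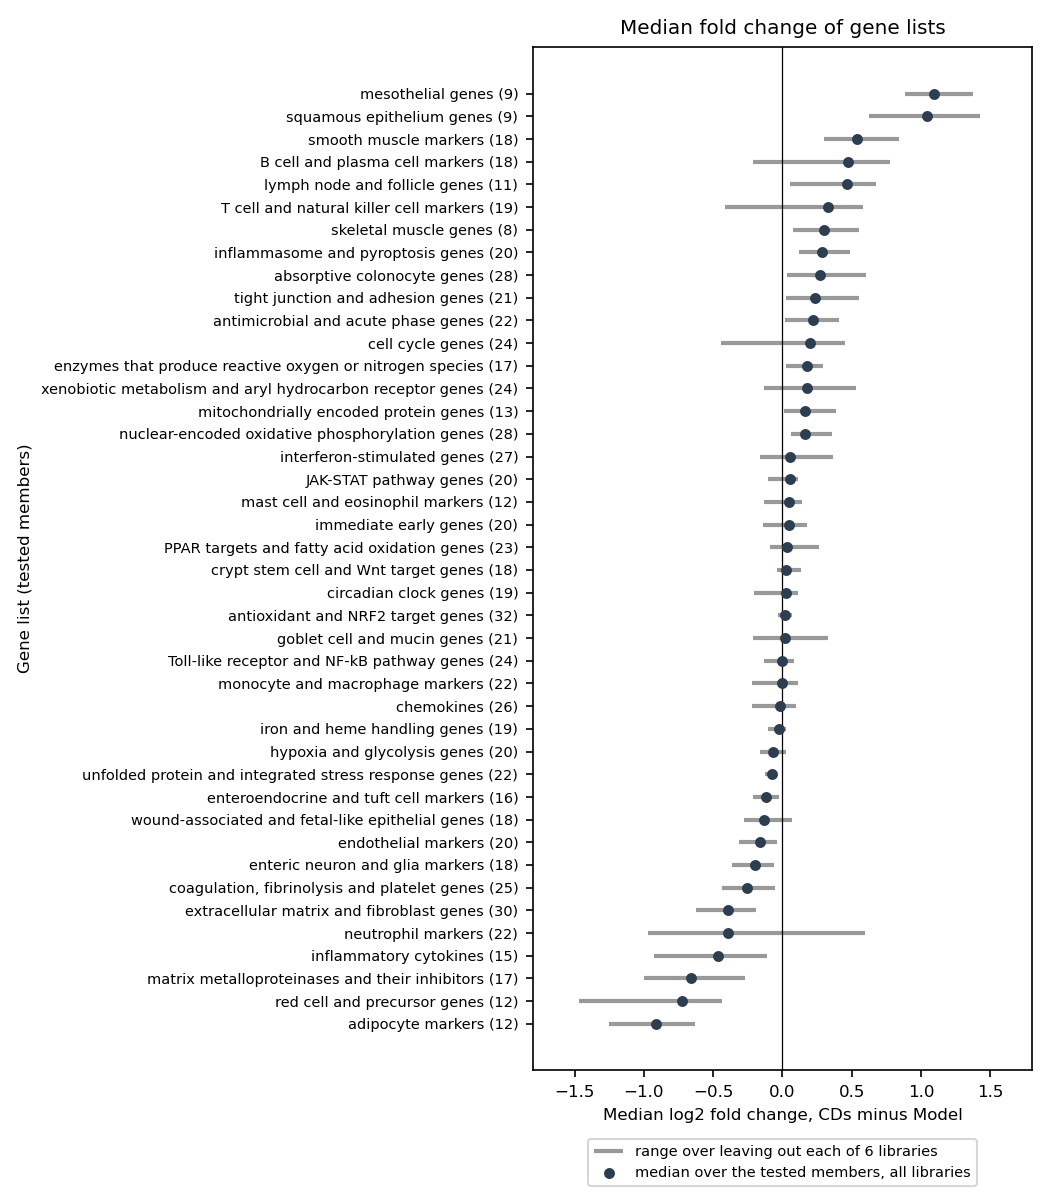
Median log2 fold change of CDs minus Model for each gene list of at least 8 tested members (points, the number tested in brackets) with its range over leaving out each of the 6 libraries in turn (bars), pancreatic genes left out. Adipocyte, red cell, metalloproteinase, cytokine and matrix lists stay below 0 and mesothelial, squamous and smooth muscle lists above 0 in that range, while the bars of the neutrophil, cell cycle and lymphocyte lists cross it.

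Over the 44 lists 21 medians changed sign when some single library was left out. Those that stayed negative were the red cell, metalloproteinase, matrix, cytokine, endothelial, clotting, neuron, adipocyte, hormone cell, unfolded protein and pancreatic lists. Those that stayed positive were the mesothelial, squamous, smooth muscle, lymph node, skeletal muscle, inflammasome, absorptive, junction, antimicrobial, oxidant-producing, mitochondrially encoded and oxidative phosphorylation lists. The lowest ends were 0.01 (mitochondrially encoded), 0.02 (antimicrobial), 0.02 (oxidant-producing), 0.03 (junction) and 0.04 (absorptive), near the all-gene median of 0.02. Among the negative lists, hormone cell genes came to -0.02 and endothelial genes to -0.04. The lists are described, not tested, and their members share the same 6 libraries.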

How the data were processed

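RNA of 9 colon samples was sequenced after poly-A selection with no strand-marking step, per the labels' protocols. Per the submitters' processing notes the tools included fastp 0.22.0, HISAT2 2.1.0 and HTSeq 0.9.1. Genome build and strand setting: not given in the sources used here. The authors deposited whole-number read counts per gene and FPKM for each library, and the deposited FPKM equalled count over length and total within a relative difference of 2.88e-14.

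The counts were tested with edgeR 4.0.16 (R 4.3.3; TMM scaling, filterByExpr, quasi-likelihood test over all 9 libraries without covariates, Benjamini-Hochberg adjustment at 0.05). DESeq2 1.42.0 and limma 3.58.1 were alternatives. CPM are TMM-scaled, and log2 CPM used a prior count of 2. Errors are SE of the log2 fold change, and intervals cover 95%. The procedure was tested on simulated data. Nothing beyond the series text says how the replicates were kept apart, so p-values measure the spread between these samples. In edgeR and in DESeq2 that spread was estimated over all 9 libraries, Blank included. On the 6 DSS-treated libraries alone edgeR gave 563 genes an unadjusted p under 0.05 (140 higher, 423 lower). DESeq2 was not fitted on those alone.

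Genes were named by rule: with groups that did not overlap, a mean FPKM of at least 5 and an established symbol, the 12 higher and 12 lower with the smallest p; per list, its key members and the 2 others with the smallest p; of genes DESeq2 called with a mean FPKM of at least 1, the 10 with the smallest adjusted p per direction; and the 10 with the largest SD within each group. Others are marked as named after their values were seen. A few genes that the rule names are not reported here. The comparison and the 44 lists (925 entries) were chosen with earlier results of these data known.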

Additional observations from a re-analysis of the deposited data

How the results depend on the processing

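No gene was called by edgeR with all 6 libraries under any scaling or filter, with the replicate block or with limma, nor when any 1 library was left out, where the smallest adjusted p was 0.0568 (without Model 1). DESeq2 called 51, edgeR without Model 1, Model 3 and CDs 1 called 1241, and edgeR without Model 2 and CDs 1 called 1. The last pair of fits, the DESeq2 fits with 1 library left out and DESeq2 without the pancreatic list were chosen after seeing the data. The 788 genes with an unadjusted p under 0.05 became 349 with the replicate block, 2739 with limma voom and sample weights (1636 higher, 1103 lower), 521 with limma on FPKM (272 higher, 249 lower), 511 with a filter of 10 CPM in 3 libraries and 3420 without Model 1, Model 3 and CDs 1. They were 491 (without Model 2) to 1966 (without Model 1) when 1 library was left out, and 1549 without CDs 1. The 1192 genes without overlap became 779 with the filter of 10 CPM and 1893 to 3884 when 1 library was left out, where fewer values have to lie apart. The 51 DESeq2 calls became 11 to 440. The cause of these moves was not tested. Same-numbered Model and CDs libraries correlated at -0.268, 0.206 and -0.368 in their deviations from the group means. No pairing by replicate number was seen, but deviations within groups of 3 cannot exclude one. The replicate block changed the sign of 2 of 44 list medians. RLE and library totals shifted the median of all genes by -0.029 and 0.024 on the log2 scale. Of 162 tested genes named in the text 29 changed the sign of their fold change under at least 1 alternative. At 13868864 to 19940300 reads per library, genes near the floor of 3 reads, such as Orm1 and Il19, carry counting error, and 3 libraries per group limit every test.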
